A study of Mus musculus with 22 samples.

Results

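The 6 genes described here carry the main inhibitory and excitatory transmitter functions of the nervous system, and their chromatin was read in mouse embryonic stem cells. They were taken by name, as Gad1, Gad2, Slc32a1, Slc17a6, Slc17a7 and Slc17a8, out of 21851 protein-coding genes of the annotation. All 6 were found, and the rule is a list of names with no threshold on a measured value, although earlier results of these data were known when it was drawn up. The study mapped Polycomb proteins and histone marks by chromatin immunoprecipitation and sequencing (ChIP-seq) in cells kept in serum with LIF. The deposited data used here are 7 peak lists, each standing for 2 libraries. There are 4 lists from wild-type E14 cells (MTF2, EZH2, H3K27me3 and H3K4me3). There are 3 lists from Mtf2 GT/GT cells (EZH2, H3K27me3 and H3K4me3), in which a trapping cassette interrupts the Mtf2 coding sequence. From which line the trapped cells came, and whether they are 1 clone, the labels do not say. Each list holds the start and end of its regions and no height, so there is no error between replicates, depth is unknown, and no test was made. A missing peak says that no region was called there.

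Gad1 and Gad2 encode the glutamate decarboxylases, which make the inhibitory transmitter GABA from glutamate. Slc32a1 encodes the vesicular inhibitory amino acid transporter, which loads GABA and glycine into synaptic vesicles. Slc17a6, Slc17a7 and Slc17a8 encode the vesicular glutamate transporters VGLUT2, VGLUT1 and VGLUT3, which load glutamate. These genes serve differentiated neurons, and their expression in embryonic stem cells was not read here. Polycomb repressive complex 2 (PRC2), with EZH2 as its catalytic subunit, trimethylates lysine 27 of histone H3 (H3K27me3) over CpG-rich promoters of developmental genes. MTF2 is a Polycomb-like partner that binds CpG-rich DNA and PRC2. H3K4me3 lies at promoters, and a promoter with both marks is called bivalent.

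The 200 bases just before the first curated start of each gene are shown because they let a reader set the letters beside the peaks (build GRCm38, 5′ to 3′ on the gene's own strand, CpG in capitals). The first curated start is the outermost among protein-coding GENCODE M21 basic transcripts and curated RefSeq transcripts, and no base of these runs lies in an exon of the gene itself. The Slc32a1 run overlaps exons of the non-coding Gm14204. At Slc32a1, Slc17a6 and Slc17a7 the first curated start lies upstream of the GENCODE start from which distances are counted below. The Slc17a6 run therefore ends before the EZH2 and H3K4me3 peaks at that GENCODE start. The windows are chr2:70561842-70562041 for Gad1, chr2:22622005-22622204 for Gad2, chr2:158610558-158610757 for Slc32a1, chr7:51621630-51621829 for Slc17a6 and chr7:45163721-45163920 for Slc17a7, all on the plus strand. The window is chr10:89621254-89621453 on the minus strand for Slc17a8.
Gad1: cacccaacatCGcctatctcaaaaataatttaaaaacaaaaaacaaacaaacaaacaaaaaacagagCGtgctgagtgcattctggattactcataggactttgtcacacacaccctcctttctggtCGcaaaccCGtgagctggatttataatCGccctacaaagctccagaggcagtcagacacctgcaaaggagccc
Gad2: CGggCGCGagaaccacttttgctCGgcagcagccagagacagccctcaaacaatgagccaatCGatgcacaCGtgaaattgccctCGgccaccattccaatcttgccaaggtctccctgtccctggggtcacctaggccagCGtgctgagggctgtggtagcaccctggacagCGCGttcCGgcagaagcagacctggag
Slc32a1: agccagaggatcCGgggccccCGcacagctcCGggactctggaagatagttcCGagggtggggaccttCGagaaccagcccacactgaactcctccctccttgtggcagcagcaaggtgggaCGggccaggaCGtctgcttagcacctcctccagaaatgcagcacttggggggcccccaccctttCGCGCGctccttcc
Slc17a6: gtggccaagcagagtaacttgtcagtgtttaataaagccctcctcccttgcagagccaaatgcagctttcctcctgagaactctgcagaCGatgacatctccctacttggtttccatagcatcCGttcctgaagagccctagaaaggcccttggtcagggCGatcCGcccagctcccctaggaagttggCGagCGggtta
Slc17a7: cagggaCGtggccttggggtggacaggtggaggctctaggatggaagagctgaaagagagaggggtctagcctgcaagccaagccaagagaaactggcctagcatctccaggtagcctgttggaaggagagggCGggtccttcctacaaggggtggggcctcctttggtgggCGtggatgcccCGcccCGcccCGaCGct
Slc17a8: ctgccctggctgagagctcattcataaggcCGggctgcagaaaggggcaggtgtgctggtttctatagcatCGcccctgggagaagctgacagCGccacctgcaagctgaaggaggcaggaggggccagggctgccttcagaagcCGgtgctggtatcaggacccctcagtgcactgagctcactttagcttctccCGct
They hold 5, 11, 10, 6, 7 and 5 CpG in that order. Slc17a8, which had no peak of any list, thus held as many CpG in these 200 bases as Gad1, whose window lies under 4 wild-type peaks. That tie is limited to these upstream bases, since 500 bp on either side of the first TSS held 56 CpG at Gad1 and 19 at Slc17a8.

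In wild-type cells the GABA genes carried wide MTF2 and EZH2 peaks inside H3K27me3 domains, 2 of the glutamate transporters carried H3K27me3 with narrow MTF2 and EZH2 peaks, and Slc17a8 carried nothing. A promoter reached 1 kb up- and downstream of each protein-coding transcription start site (TSS). MTF2 touched the promoters of 4 of the 6 genes (Gad1, Gad2, Slc32a1 and Slc17a7), against 15.9% of all 21851 genes. EZH2 touched 4 (Gad1, Gad2, Slc32a1 and Slc17a6), against 16.6%. H3K27me3 touched 5 of the 6, against 19.3%, and H3K4me3 touched the same 5, against 65.5%. All 4 wild-type lists touched the promoters of Gad1, Gad2 and Slc32a1, and of 14.6% of all genes. None touched Slc17a8, as was so for 33.4% of all genes. The gene that lacked EZH2 at its promoter (Slc17a7) and the gene that lacked MTF2 there (Slc17a6) both had that protein further inside the gene.

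**Figure D1:**
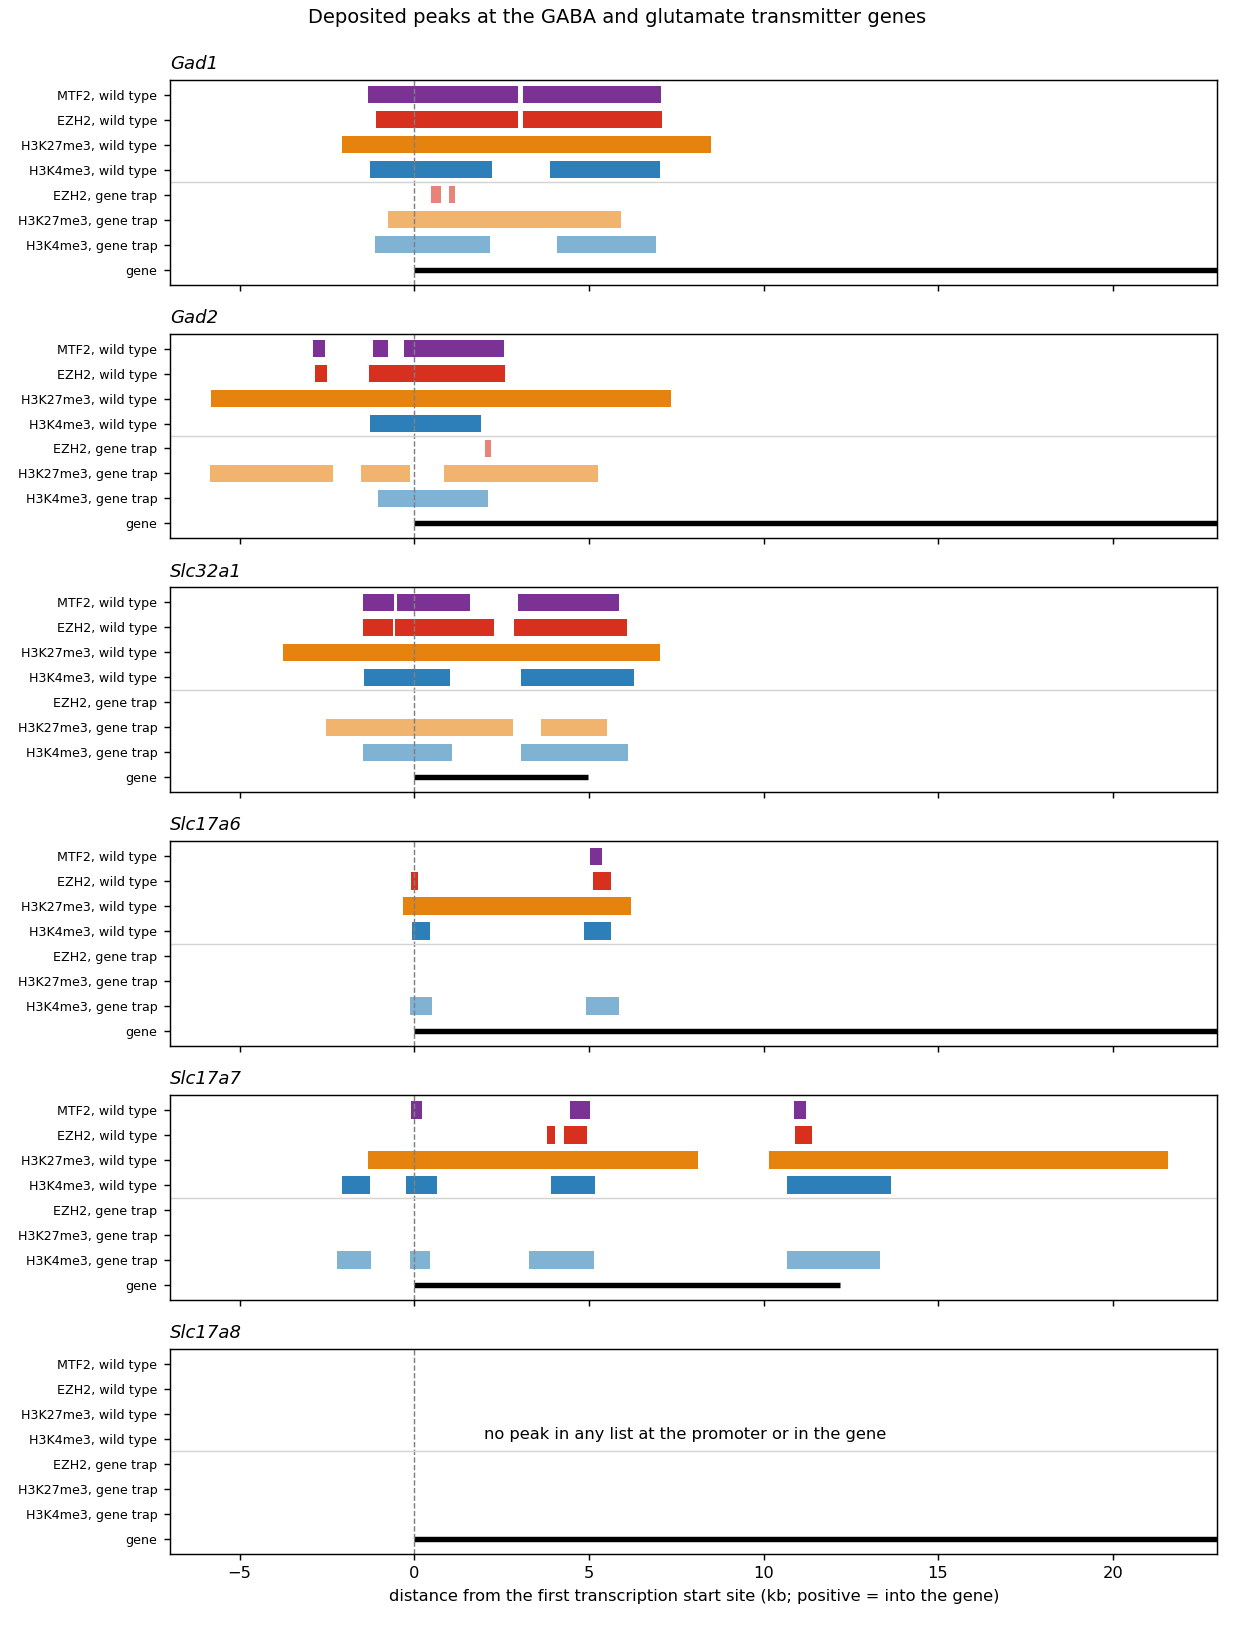
Peaks of the 7 lists at the 6 genes, by distance in kb from the first TSS (dashed line, positive into the gene); solid bars are wild-type peaks, pale bars gene-trap peaks, and the black bar is the gene, ended at the plot's edge. Peaks are shown that touch the promoter, the gene body or the H3K27me3 domain over the promoter. Wide peaks stand at Gad1, Gad2 and Slc32a1, H3K27me3 is missing from the gene-trap rows of Slc17a6 and Slc17a7, and Slc17a8 is empty.

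Gad1 lies on chromosome 2 (70562042 to 70602014, plus strand) and has 3 protein-coding start sites within 857 bp. Its promoter lay wholly under all 4 wild-type lists. The MTF2 peak there spanned 4271 bp, from -1316 to 2954 bp relative to the first TSS. It was wider than 95.5% of MTF2 promoter peaks (median 1113 bp). Shares and medians of promoter peak width, here and below, take each marked gene once, by its widest promoter peak. The EZH2 peak spanned 4077 bp and the H3K4me3 peak 3496 bp over nearly the same stretch. A second group of peaks followed further into the gene, with MTF2 over 3933 bp (3121 to 7053 bp from the TSS), EZH2 over 3993 bp and H3K4me3 over 3164 bp. That MTF2 peak held 63 coding and 3870 intronic bases. It covered the start of another Gad1 transcript, 4335 bp from the first TSS, which was outside the set used for the promoter. H3K27me3 was called as 1 domain of 10547 bp across both groups of peaks. The start of Gad1os, an antisense RNA, lay under the first MTF2, EZH2 and H3K4me3 peaks as well, so these peaks are not assigned to either gene alone.

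Gad2 lies on the same chromosome (22622205 to 22693874, plus strand), with its nearest protein-coding start, that of Apbb1ip, 151889 bp away. MTF2 was called over its promoter in 2 pieces, of 437 bp (-1188 to -752 bp) and 2868 bp (-296 to 2571 bp). EZH2 joined that stretch into 1 peak of 3890 bp, wider than 93.03% of EZH2 promoter peaks (median 1158 bp). H3K4me3 spanned 3177 bp, and the H3K27me3 domain spanned 13178 bp from -5825 to 7352 bp. An MTF2 peak of 339 bp and an EZH2 peak of 346 bp lay further upstream in it, from -2893 and -2838 bp. This was the widest promoter domain of the 6 genes. In a gene of 71670 bp it covered 10.3% of the body, all at the 5′ end.

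Slc32a1 is a short gene of 4982 bp with 2 exons on chromosome 2 (158610767 to 158615748, plus strand), and wild-type H3K27me3 covered all of it in a domain of 10799 bp. MTF2 formed 3 peaks, of 888, 2090 and 2876 bp. The last lay from 2979 to 5854 bp, over 1185 coding bases and the gene's 3′ end. EZH2 peaks of 858, 2811 and 3238 bp matched them, and H3K4me3 peaks of 2468 and 3212 bp lay at the start and at the 3′ end. Together MTF2 covered 72.3% of the gene body, EZH2 88.5% and H3K4me3 58.9%. At Gad1 these shares were 17.2%, 17.4% and 13.5% in a body of 39973 bp, so the shares follow gene length as well as peak width. The start sites of 2 non-coding RNAs on the opposite strand, Gm14204 and Gm14205, lay under the same MTF2 peak as the Slc32a1 TSS.

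Slc17a6 lies on chromosome 7 (51622006 to 51671119, plus strand). Its promoter had an EZH2 peak of 200 bp across the TSS (-100 to 99 bp), where 2.78% of EZH2 promoter peaks were narrower. H3K4me3 spanned 518 bp there, near the low end of H3K4me3 promoter peaks, of which 0.9497% were narrower. The MTF2 peak of this gene was intronic, 331 bp wide and 5043 to 5373 bp from the TSS. An EZH2 peak of 511 bp and an H3K4me3 peak of 782 bp overlapped it. H3K27me3 was called as 1 domain of 6550 bp that ran from -333 to 6216 bp and so spanned both groups. The domain was wider than 77.5% of H3K27me3 promoter peaks (median 4220.5 bp) although the EZH2 peaks in it came to 711 bp.

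Slc17a7 lies on chromosome 7 too (45163949 to 45176142, plus strand) and showed the same form over 3 sites. MTF2 peaks of 329, 573 and 348 bp lay at the TSS (-100 to 228 bp), at 4458 to 5030 bp and at 10876 to 11223 bp. The middle peak held 253 coding and 320 intronic bases, and the last held 217 coding and 131 untranslated bases. EZH2 was not called at the TSS, but peaks of 664 and 480 bp overlapped the other 2 MTF2 sites and another of 218 bp lay just before the middle one. H3K4me3 was called at all 3 sites, over 906, 1261 and 2958 bp. The H3K27me3 domain over the promoter spanned 9463 bp, close to the 10547 bp at Gad1, with 902 bp of MTF2 inside it against 8204 bp at Gad1. A second domain of 11428 bp began in the 3′ end of the gene and reached the starts of Gfy and Pth2, so it is shared with those genes.

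Slc17a8 lies on chromosome 10 (89574020 to 89621253, minus strand), with start sites 21438 bp apart. No peak of the 7 lists touched either promoter or the gene body of 47234 bp. No peak lay within 5 kb of a start site. The nearest protein-coding start was that of Scyl2, 65015 bp away, which had H3K4me3 in both kinds of cell.

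Promoter peaks of the 3 other wild-type lists were nested within the H3K27me3 domains. An H3K4me3 peak of 798 bp upstream of Slc17a7, outside its promoter window, crossed the edge of the domain. At Gad1, Gad2 and Slc32a1 all bases of the MTF2, EZH2 and H3K4me3 promoter peaks lay inside the H3K27me3 domain. Of the MTF2 promoter bases there, 95.01%, 100% and 98.8% lay under EZH2 and 81.85%, 80.1% and 79.65% under H3K4me3. The overlap was thus near complete for EZH2 and smaller for H3K4me3 at all 3 genes. At Slc17a6 82.5% of the 200 bp of EZH2 lay under H3K4me3, and at Slc17a7 all 329 bp of MTF2 did.

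In Mtf2 gene-trap cells EZH2 was almost gone from the 6 genes, H3K27me3 stayed at the 3 GABA genes and was gone from both glutamate transporters that had it, and H3K4me3 stayed. Gene-trap EZH2 touched 1 of the 6 promoters (Gad1), against 0.732% of all genes. Gene-trap H3K27me3 touched 3 (Gad1, Gad2 and Slc32a1), against 2.68%, and H3K4me3 touched 5, against 66.1%. Of the 4 genes with wild-type EZH2 at the promoter, 1 (Gad1) had a gene-trap EZH2 peak there, and 4.24% of the 3629 such genes did. Of the 5 with H3K27me3, 3 had it in gene-trap cells, and 13.7% of 4208 genes did. Of the 5 with H3K4me3 all had it, and 98.8% of 14321 genes did. Genotype and the background of the line cannot be told apart in these lists.

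**Figure D2:**
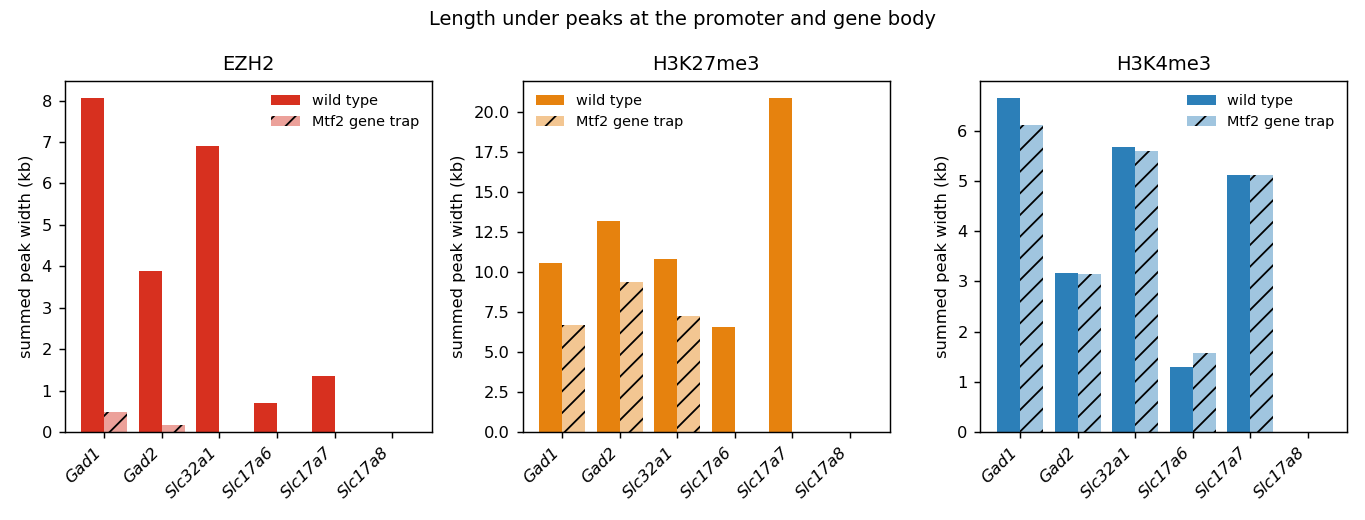
Summed width in kb of the peaks that touch the promoter or gene body (and, for gene-trap cells, of peaks inside those wild-type peaks), by gene; solid bars are wild type, hatched pale bars Mtf2 gene trap. There is 1 list per bar and so no error bar. Gene-trap EZH2 comes to 490 bp at Gad1, 179 bp at Gad2 and none elsewhere, H3K27me3 remains at Gad1, Gad2 and Slc32a1 alone, and H3K4me3 bars are alike.

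EZH2 remained as short pieces at the 2 decarboxylase genes. At Gad1 the 8070 bp of wild-type EZH2 over promoter and gene went to 490 bp in 2 peaks, of 297 and 193 bp, at 478 to 774 bp and 981 to 1173 bp from the first TSS. The second group of wild-type EZH2 peaks, further into Gad1, had none. At Gad2 3890 bp went to 179 bp, which began 2024 bp from the TSS and so outside the promoter window, and the upstream EZH2 peak of 346 bp was gone. At Slc32a1 6907 bp, at Slc17a6 711 bp and at Slc17a7 1362 bp went to no peak. The intronic Gad1 piece of 297 bp (chr2:70562520-70562816) and the intronic Gad2 piece (chr2:22624229-22624407) are shown whole because they are where EZH2 was still called (GRCm38, plus strand, CpG in capitals).
Gad1 EZH2 piece: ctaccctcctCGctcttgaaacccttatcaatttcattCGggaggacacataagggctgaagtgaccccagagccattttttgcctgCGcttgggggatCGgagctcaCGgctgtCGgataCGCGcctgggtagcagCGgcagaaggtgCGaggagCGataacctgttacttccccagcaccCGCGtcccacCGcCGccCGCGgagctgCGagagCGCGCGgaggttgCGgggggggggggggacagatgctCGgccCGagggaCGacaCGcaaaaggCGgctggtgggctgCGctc
Gad2 EZH2 piece: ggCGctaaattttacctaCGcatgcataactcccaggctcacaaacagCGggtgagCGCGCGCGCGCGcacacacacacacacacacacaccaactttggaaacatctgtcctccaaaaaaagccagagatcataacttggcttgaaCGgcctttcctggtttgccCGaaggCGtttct
The Gad1 piece held 28 CpG, or 9.43 per 100 bp against 5.13 over the wild-type peak around it. Among all windows of that width in the wild-type peak the most was 30 CpG, and 95.05% of windows held fewer than 28. The Gad2 piece held 12 CpG, or 6.70 per 100 bp against 4.42 in its wild-type peak, the richest window there held 21, and 77.1% of windows held fewer than 12. The Gad2 piece was thus less extreme within its peak than the Gad1 piece. A CpG-rich run of alternating bases followed by a CA repeat lies within the Gad2 piece. The other Gad1 piece, largely in an untranslated exon, held 6 CpG in 193 bp, or 3.11 per 100 bp, which is below the average of the wild-type peak.

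H3K27me3 kept most of its length at the GABA genes. At Gad1 it went from 10547 bp to 1 peak of 6664 bp (63.2% of the bases), drawn in at both ends to -755 and 5908 bp. At Slc32a1 it went to 2 peaks, of 5363 and 1891 bp, which covered 67.2% of the wild-type bases and left a gap of 786 bp in the intron and the start of the second exon (2839 to 3624 bp). At Gad2 it went to 3 peaks, of 3528, 1429 and 4425 bp, which covered 70.9%. A gap of 953 bp from -111 to 841 bp held the Gad2 TSS itself, and the gene-trap H3K4me3 peak of 3143 bp lay over that gap. With the TSS required inside the peak, Gad2 would therefore drop out, leaving 2 genes. At Slc17a6 and Slc17a7 no gene-trap H3K27me3 peak lay anywhere in the wild-type domains. This includes the second Slc17a7 domain with Gfy and Pth2.

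EZH2 and H3K27me3 thus differed in what was left at the same gene. Slc32a1 had no EZH2 peak and 67.2% of its H3K27me3 bases, and Gad2 had 4.60% of its EZH2 bases and 70.9% of its H3K27me3 bases. Over all 3629 genes with wild-type EZH2 at the promoter, 5.51% had any gene-trap EZH2 in the wild-type peak. Over the 4208 with H3K27me3, 15.5% had any left.

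H3K4me3 peaks were called at the same sites in both kinds of cell, with edges that moved most at Slc17a7. Of the wild-type H3K4me3 bases over promoter and body, gene-trap peaks overlay 91.8% at Gad1, 93.3% at Gad2, 97.2% at Slc32a1, 96.2% at Slc17a6 and 87.8% at Slc17a7. Over promoter peaks alone these shares were 94.2%, 93.3%, 100%, 100% and 65.7%, and the median over all marked genes was 89.4%. The lowest of the 5 belonged to Slc17a7, whose peak at the TSS went from 906 to 595 bp while the one in the middle of the gene went from 1261 to 1856 bp. The number of H3K4me3 peaks at promoter and body stayed at 2, 1, 2, 2 and 3.

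Genes with H3K27me3 domains as wide as these differed in whether gene-trap cells had the mark. Slc17a7, without it, had a wild-type domain of 9463 bp, and the 3 GABA genes, with it, had domains of 10547 to 13178 bp. Of all 181 genes with a promoter domain from 9463 to 13178 bp, these 4 included, 43.1% had gene-trap H3K27me3 at the promoter. Among the 83 of them whose EZH2 promoter peak was at least 2811 bp, the width at Slc32a1, 59% had it. Among 85 with a narrower EZH2 peak the share was 31.8%, and among 13 with none, Slc17a7 included, it was 15.4%. These classes were drawn around the values of the 6 genes after those were seen and are a description with no test. Neighbouring genes that share a domain are counted each.

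CpG density was highest at the start of Slc32a1 and lowest at that of Slc17a8. Within 500 bp on either side of the first TSS, Slc32a1 held 7.99 CpG per 100 bp, Gad2 5.69, Gad1 5.59, Slc17a7 4.70, Slc17a6 4.10 and Slc17a8 1.90. Gad1 and Gad2 differ there by 1 CpG (56 and 57), which sets no order between them. The median was 4.30 over 21838 promoters with a full window and 6.49 over the 3481 with MTF2. It was 4.00 over 881 promoters with H3K27me3 and no MTF2, such as that of Slc17a6, and 0.799 over 7297 with no wild-type peak, such as that of Slc17a8. All 4 genes with MTF2 at the promoter, the 3 GABA genes and Slc17a7, thus lay between the quartiles of MTF2 promoters (4.595 and 8.79). Slc17a8, measured at the first of its start sites, lay above the upper quartile of promoters without peaks (1.399). The order depends on the window, since 250 bp on either side gave 7.19 for Slc17a7 and 6.19 for Gad1.

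**Figure D3:**
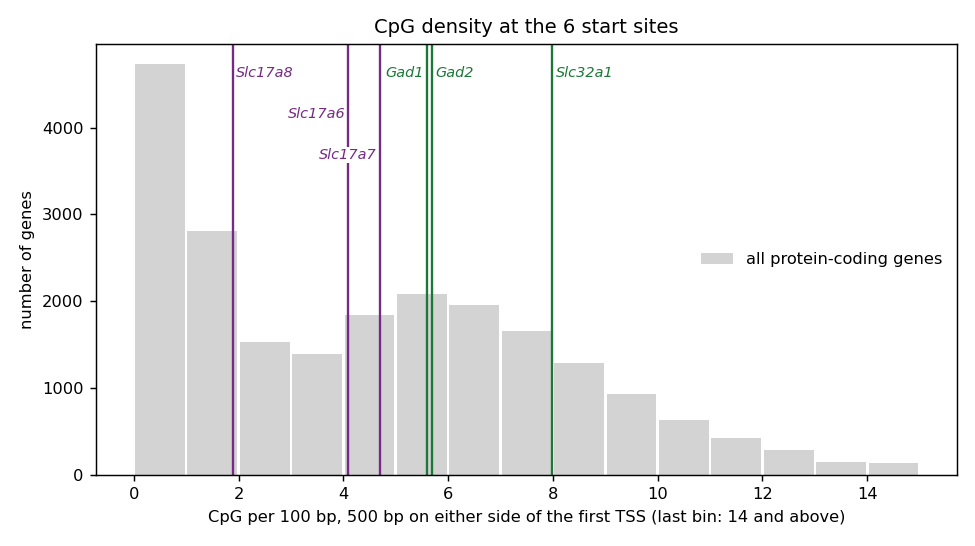
CpG per 100 bp within 500 bp on either side of the first TSS (x axis) for all protein-coding genes (grey bars, number of genes) and for the 6 genes (lines, green for GABA genes, purple for glutamate transporters). Slc17a8 stands at 1.90 and Slc32a1 at 7.99, with the other 4 between 4.10 and 5.69.

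The trinucleotide GCG was counted on both strands with overlaps and always holds a CpG. It gave the order of CpG density except that Slc17a6 and Slc17a7 changed places. Slc32a1 held 68 in the same window, Gad2 45, Gad1 39, Slc17a6 31, Slc17a7 29 and Slc17a8 10. GCG is too common to tell promoters apart by presence, since 94.7% of all windows of this length held it. Within the wild-type H3K27me3 domains CpG were denser under MTF2 than beside it. At Gad1 the density was 4.28 per 100 bp under MTF2 and 1.75 in the rest of the domain, at Gad2 4.64 and 1.12, and at Slc32a1 5.76 and 1.64. At Slc17a7 it was 6.76 and 1.77, and at Slc17a6 4.23 and 2.20. EZH2 and H3K4me3 peaks over the TSS of the GABA genes were CpG-dense as well, so this is not particular to MTF2. They held 5.13 and 5.66 CpG per 100 bp at Gad1, beside 5.06 for the MTF2 peak over the TSS. At Gad2 they held 4.42 and 4.63, beside 5.16, and at Slc32a1 5.265 and 6.28, beside 6.32. The narrow MTF2 peak at the Slc17a7 TSS was the densest of all peaks at the 6 genes, with 34 CpG in 329 bp (10.3 per 100 bp). Under the H3K27me3 left in gene-trap cells the density was 4.31 at Gad1, 4.38 at Slc32a1 and 2.08 at Gad2, against 2.704, 2.82 and 2.14 in the rest of the domain. CpG were thus denser there at Gad1 and Slc32a1 and alike at Gad2.

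Other genes of transmitter handling were read from lists that were chosen with earlier results of these data known. Over all genes 15.9% had wild-type MTF2 at the promoter, 16.6% EZH2, 19.3% H3K27me3 and 65.5% H3K4me3. In gene-trap cells 0.732% had EZH2 and 2.68% H3K27me3, so a count of none in a short list is near those shares. Of 6 genes of GABA uptake and breakdown 3 had wild-type MTF2 and EZH2, with the widest EZH2 promoter peak at the GABA transporter gene Slc6a11 (1410 bp). None of the 6 had gene-trap EZH2, and Slc6a11 had gene-trap H3K27me3 over 718 bp. Of 12 genes of glutamate uptake and turnover 4 had MTF2 and EZH2, with the widest at the glial glutamate transporter gene Slc1a2 (1499 bp) and the glutamine transporter gene Slc38a3 (1078 bp), and none had gene-trap EZH2 or H3K27me3. Of 17 genes that make or move other transmitters 9 had MTF2 and EZH2, 11 had H3K27me3, and 1 (Slc6a4, the serotonin transporter) had gene-trap H3K27me3. The widest EZH2 peak there, of 3166 bp, was shared by Chat, which makes acetylcholine, and Slc18a3, which loads it into vesicles. Their shared H3K27me3 domain of 10692 bp, about as wide as that of Slc32a1, had no gene-trap peak at either promoter.

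Other members of the Slc17 family carry organic anions, sialic acid or nucleotides. Like Slc17a8, none of these 6 genes had MTF2, EZH2 or H3K27me3 at the promoter in wild-type cells. Over all genes 15.9%, 16.6% and 19.3% had them, so none of 6 is near those shares. Slc17a5 and Slc17a9 had H3K4me3 alone, which 65.5% of all genes had. Of 12 genes of the synaptic vesicle cycle 3 had MTF2, EZH2 and H3K27me3, also near the shares over all genes. EZH2 was widest at Syn2 (1150 bp) and Syt1 (590 bp). Wild-type H3K4me3 was at 11 of the 12, against 65.5% of all genes. None of these 12 had gene-trap EZH2 or H3K27me3, against 0.732% and 2.68% of all genes.

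Regulators of the 2 neuron types carried more. Of 13 regulators of GABAergic fate 12 had wild-type EZH2, 7 had gene-trap EZH2 and 12 gene-trap H3K27me3. Over all genes, here and for the next list, the shares were 16.6%, 0.732% and 2.68%. Neighbouring genes under the same wild-type H3K27me3 domain are counted each, as with Dlx5 and Dlx6 (35657 bp) and Dlx1 and Dlx2 (31293 bp). The widest wild-type EZH2 peaks were at Gata2 (7808 bp) and Gsx1 (7371 bp). The widest gene-trap EZH2 promoter peaks of these 7 were 620 bp at Dlx2, 591 bp at Gsx2, 403 bp at Gata3, 378 bp at Ptf1a, 307 bp at Gsx1, 257 bp at Dlx5 and 169 bp at Dlx1. Of 12 regulators of glutamatergic fate 11 had wild-type EZH2, 6 had gene-trap EZH2 and 10 gene-trap H3K27me3. Lhx2 (9942 bp) and Lmx1b (7483 bp) had the widest wild-type peaks. The gene-trap peaks spanned 720 bp at Tlx1, 476 bp at Lhx2, 382 bp at Eomes, 349 bp at Lmx1b, 173 bp at Lhx9 and 154 bp at Neurog2. The Gad1 piece of 297 bp falls within these ranges. Both fate lists thus had EZH2 left at a larger share of genes than the 6 transmitter genes, with no test of that difference. Their wild-type H3K27me3 promoter domains were also wider, with medians of 19184.5 bp (GABAergic) and 17533 bp (glutamatergic) against 10547 bp for the transmitter genes.

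**Figure D4:**
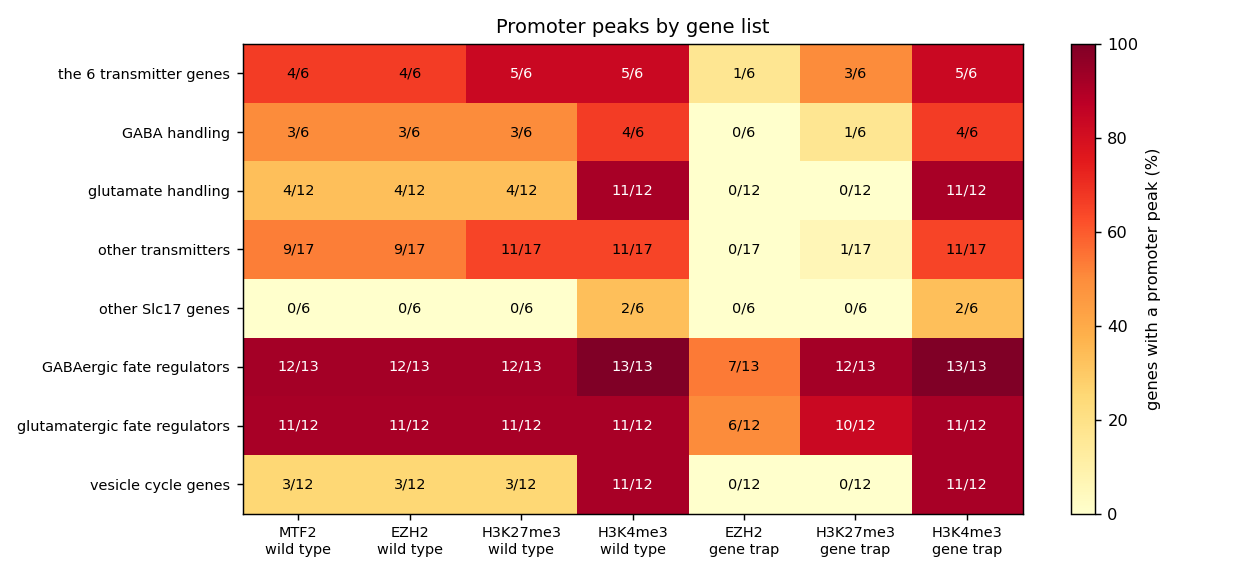
Genes with a promoter peak (number of those in the list, colour by percent) for the 6 transmitter genes and 7 other gene lists (rows) in the 7 peak lists (columns). In the gene-trap EZH2 column the GABAergic and glutamatergic fate regulators have 7 of 13 and 6 of 12. The transmitter genes have 1 of 6 and the rest none, and the share over all genes is 0.732%.

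The genes most like each of the 6 were sought by the share of bases covered within 5 kb of the start sites, as the mean absolute difference over the 7 lists. For Gad1 they were Egr3 (5.18 percentage points) and Pdgfra (6.05). For Gad2 they were Dmrt2 (2.77) and Pou4f1 (3.20), and for Slc32a1 Helt (2.48) and Duoxa2 (3.42). For Slc17a6 they were Dmrtc2 and Lypd4, equal at 0.689 with the same shares in every list, and for Slc17a7 Artn (1.31) and Dbndd1 (1.85). For Slc17a8 6489 genes tied at no coverage in any list, so none is named. Gene-trap EZH2 was set side by side for each GABA gene's pair, although that list was among the 7 used to choose the pairs. Egr3 had 11.5% of its window under gene-trap EZH2 and Pdgfra 2.82%, against 4.51% at Gad1. Dmrt2 and Pou4f1 had none, against 1.79% at Gad2, and Helt and Duoxa2 had none, like Slc32a1.

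As checks of the cells, 8 of 8 pluripotency genes, Pou5f1 and Nanog among them, had H3K4me3 at the promoter in both kinds of cell. Over all genes 65.5% had it in wild-type and 66.1% in gene-trap cells. Of these 8, 1 (Esrrb, with an EZH2 peak of 2434 bp) had MTF2, EZH2 and H3K27me3 in wild-type cells. The shares over all genes were 15.9%, 16.6% and 19.3%. Esrrb also had H3K27me3 in gene-trap cells, against 2.68% of all genes. Of 8 broadly expressed genes 7 had H3K4me3 in wild-type and 8 in gene-trap cells, so H3K4me3 alone does not identify pluripotent cells. In wild-type cells 1 of them (B2m) had EZH2 over 233 bp and H3K27me3 over 3505 bp, and in gene-trap cells it had neither. The gene without H3K4me3 in wild-type cells was Hprt, which had a peak of 2646 bp in gene-trap cells. The lists held 6357 MTF2, 7213 EZH2, 6294 H3K27me3 and 27418 H3K4me3 peaks in wild-type cells and 840, 963 and 26960 peaks of the last 3 in gene-trap cells. No MTF2 list of gene-trap cells was analysed here, so the loss of MTF2 was not checked.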

How the data were processed

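ChIP-seq was described by 22 samples in 12 groups, and the 14 libraries of 7 groups stand behind the lists used here. The other 8 libraries were not analysed here. The build was mm10 (GRCm38), and MACS2 2.7, BWA 0.7.10-r789 and CASAVA are named, per the submitters' processing notes. Their roles, the threshold, the control and the step behind the word MAnorm are not given in the sources used here. The deposited values are region starts and ends in bp, which have no other unit, and 1 list is named by both libraries of its group, per the labels. Starts were converted to positions counted from 1. Promoters (1 kb on either side of protein-coding TSS) came from GENCODE M21 basic, counted by gene identifier without mitochondrial genes. A gene body ran from the first to the last base of those transcripts. An overlap of 1 bp counted. The overlap code was tested on simulated peaks, in Python 3.11.15. Sequences came from GRCm38 (RefSeq assembly).

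All 6 members were reported in every list. From other lists the 2 genes with the widest wild-type EZH2 promoter peak and each gene with gene-trap EZH2 were named, and for each member the 2 genes with the most similar coverage. One gene that this rule names is not reported here. Others, such as Slc6a4, Slc17a5, Slc17a9, Hprt, Pou5f1 and Nanog, were named after their values were seen. The members and lists were chosen with earlier results of these data known. Replicate spread could not be measured, so no test was made. Alternatives were the window, the TSS inside the peak, the transcript set, a minimum width of 500 bp, an overlap of 200 bp and the rule for kept.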

Additional observations from a re-analysis of the deposited data

How the results depend on the processing

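Of 44 recomputed counts of the 6 genes, 37 did not change and 40 stayed within 1.5 times. The counts that moved were those for gene-trap EZH2 at the promoter, where Gad1 alone was counted. That count was 2 with a window of 2.5 kb, which adds Gad2, and 0 with the TSS inside the peak or with peaks of at least 500 bp. Genes that kept EZH2 numbered 2, not 1, when any gene-trap overlap with the wild-type peak counted, and Gad2 was the addition. With peaks of at least 500 bp, MTF2 was counted at 3 genes without Slc17a7 and EZH2 at 3 without Slc17a6. In a window of 500 bp the CpG density changed most at Slc17a7, from 4.70 to 7.19 per 100 bp. No paired analysis was possible because each group has 1 list made from both libraries, and for the same reason no library could be left out. The lists have no scores, so a stricter threshold could be tried as a minimum width only, and depth limits what a missing narrow peak shows.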
